A study of Mus musculus with 4 samples.

Results

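The genes described here are 8 subunits of the GABA-A receptor: Gabra2, Gabra3, Gabra4, Gabra5, Gabra6, Gabrd, Gabrg1 and Gabrg3. They were chosen by gene symbol, and all 8 were found among the 32286 features of the count files. Other subunit genes of the receptor were not analysed here. GABA-A receptors are chloride channels opened by GABA, the main inhibitory transmitter of the forebrain and cerebellum, and each channel is assembled from several subunits. The alpha subunits help to form the GABA site and set where and how fast the receptor works, the gamma subunits hold receptors at the synapse, and the delta subunit takes the place of gamma in receptors outside the synapse that give a steady (tonic) inhibition. Subunit genes are switched between neuron types and during postnatal development, and some glia express them as well.

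The brains were those of C57BL/6 mice at postnatal day 14. Nuclei were taken from hemispheres that had been snap frozen and were captured with droplet-based 3′ chemistry from 10x Genomics. The 2 libraries called WT had the genotype Slc17a6-Cre, Ago2 wt/wt, and the 2 libraries called Ago2 KO had Slc17a6-Cre, Ago2 flox/flox. Both groups thus carried Slc17a6-Cre, whose driver gene encodes the vesicular glutamate transporter VGLUT2, and the comparison of genotypes asks what removal of the small-RNA-binding protein Ago2 from VGLUT2 neurons does. The design text speaks of cortical cells, yet mature cerebellar granule nuclei alone made up 15.5% to 22.3% of a library.

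The WT libraries held 13107920 and 29317266 unique molecular identifiers (UMIs, counted RNA molecules), and the Ago2 KO libraries held 10845009 and 11439733. After filtering, 15450 of 17802 barcodes were kept, 3168 to 5826 per library, with a median of 2315 to 3086 UMIs per nucleus. Pairs of libraries shared 3 to 10 barcodes. The mitochondrial filter removed 17.8% of barcodes in WT replicate 1 and 5.64% to 8.78% in the other libraries. Nuclei were clustered without the 8 genes, and clusters were named from marker lists that do not hold them. The names mean "astrocyte-like" and so on, and plain names are used below. Clusters left unnamed held 14.86% to 19.97% of a library. In 15 classes every library had at least 20 nuclei. Levels are CPM, the counts of a gene per 1000000 UMIs, summed over the nuclei of a class in a library, and they are compared only for the same gene across classes, never between genes.

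Nuclear RNA is rich in unspliced transcripts, so the position and length of a gene bear on its counts. On GRCm38 with the GENCODE vM21 annotation, all 8 genes lie on the minus strand. Gabrg1 (chr5:70751047-70842617), Gabra2 (chr5:70957597-71095849) and Gabra4 (chr5:71569749-71658308) share a stretch of chromosome 5, with a gap of 115 kb between Gabrg1 and Gabra2. Gabrg3 (chr7:56716465-57387188) and Gabra5 (chr7:57407672-57510059) are separated by 20.5 kb on chromosome 7. Gabra6 is at chr11:42306437-42321072, Gabrd at chr4:155384980-155398112 and Gabra3 at chrX:72432681-72656848. Gene length ran from 13.1 kb for Gabrd and 14.6 kb for Gabra6 to 671 kb for Gabrg3. Gabra4 overlaps 1 gene of the count files on the opposite strand and Gabra5 overlaps 2, and the strand setting of the counting was not given in the sources used here, so their counts are less certain. Gabra3 is X-linked, and all 4 libraries had Y-linked transcripts (361 to 414 CPM) and Xist at 0.31 to 1.45 CPM.

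The promoters of Gabra2 and Gabra6 are shown because these genes gave the 2 patterns the results turn on: Gabra2 was spread over neurons and astroglia, whereas Gabra6 was centred on 1 neuron lineage. Each is the 250 bases before the gene start in RefSeq (GRCm38.p6), minus strand, written 5′ to 3′. Capitals mark CG dinucleotides and, in Gabra6, the short site of nuclear factor I (TTGGCA, here on the opposite strand as TGCCAA).
Gabra2 (chr5:71095850-71096099): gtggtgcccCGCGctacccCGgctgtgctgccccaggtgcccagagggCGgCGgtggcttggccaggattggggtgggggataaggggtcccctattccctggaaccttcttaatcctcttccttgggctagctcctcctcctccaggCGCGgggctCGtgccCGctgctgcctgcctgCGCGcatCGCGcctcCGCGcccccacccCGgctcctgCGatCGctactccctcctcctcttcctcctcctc
Gabra6 (chr11:42321073-42321322): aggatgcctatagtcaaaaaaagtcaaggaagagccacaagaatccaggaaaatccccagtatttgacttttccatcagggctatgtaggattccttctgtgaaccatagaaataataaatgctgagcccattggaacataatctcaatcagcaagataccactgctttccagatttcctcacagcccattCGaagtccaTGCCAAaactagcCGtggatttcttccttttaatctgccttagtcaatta
The Gabra2 stretch holds 18 CG dinucleotides and the Gabra6 stretch holds 2. Over the 300-base window of the RefSeq table (250 bases before to 50 after the start), Gabra2 has 25 CG dinucleotides and 70% GC, and 83.1% of the 32851 promoters have no more CG dinucleotides than that. Gabra6 has 2 and 42% GC, and only 23.3% of promoters have no more. The median promoter has 7. Gabra5 and Gabrg3 have 13 each, Gabra4 has 12, Gabrg1 has 3 and Gabra3 has 0. No entry was matched for Gabrd.

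Motifs were searched on both strands of the same windows. The short site TTGGCA occurs in 14.1% of all promoters, and among the members it was found in Gabra6, 50 bases before the start, and in Gabrg3, 200 bases before it. The full palindrome of nuclear factor I (0.0365% of promoters) and the cAMP response element TGACGTCA (1.79%) were found in none of the 7 matched members. The E-box CAGATG (17.2%) was found in Gabra5 alone, 223 bases before the start, and the TATA box TATAAA (13.6%) in Gabra3 alone. These matches describe letters and not bound sites.

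Across the 15 named classes the 8 subunits fell into distinct patterns. By the mean of the 4 libraries, Gabra6 and Gabrd were highest in mature cerebellar granule nuclei, and Gabra5 and Gabra2 in immature neurons. Gabrg3 was highest in striatal spiny neurons, Gabra3 in oligodendrocyte precursors, Gabra4 in Bergmann glia and striatal spiny neurons, and Gabrg1 in astrocytes. The class called immature neuron joined 2 clusters. Cluster 9 (531 nuclei) was named on Dcx, Dlx1 and Igfbpl1, and cluster 11 (447 nuclei) had Sox11 and Sox4 as well. With a finer clustering (Leiden resolution 2), a cluster of 208 nuclei that shared leading genes with cluster 11 was named striatal spiny. How mature the nuclei of this class were was not tested. The highest class stood 7.37-fold above the lowest for Gabra2, the most evenly spread gene, and 32.4-fold for Gabrd. For 7 of the 8 genes, 13 of the 14 pairs of neighbours in the order of classes overlapped in their library values. The order is therefore resolved at few places, which are named for each gene below.

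**Figure D1:**
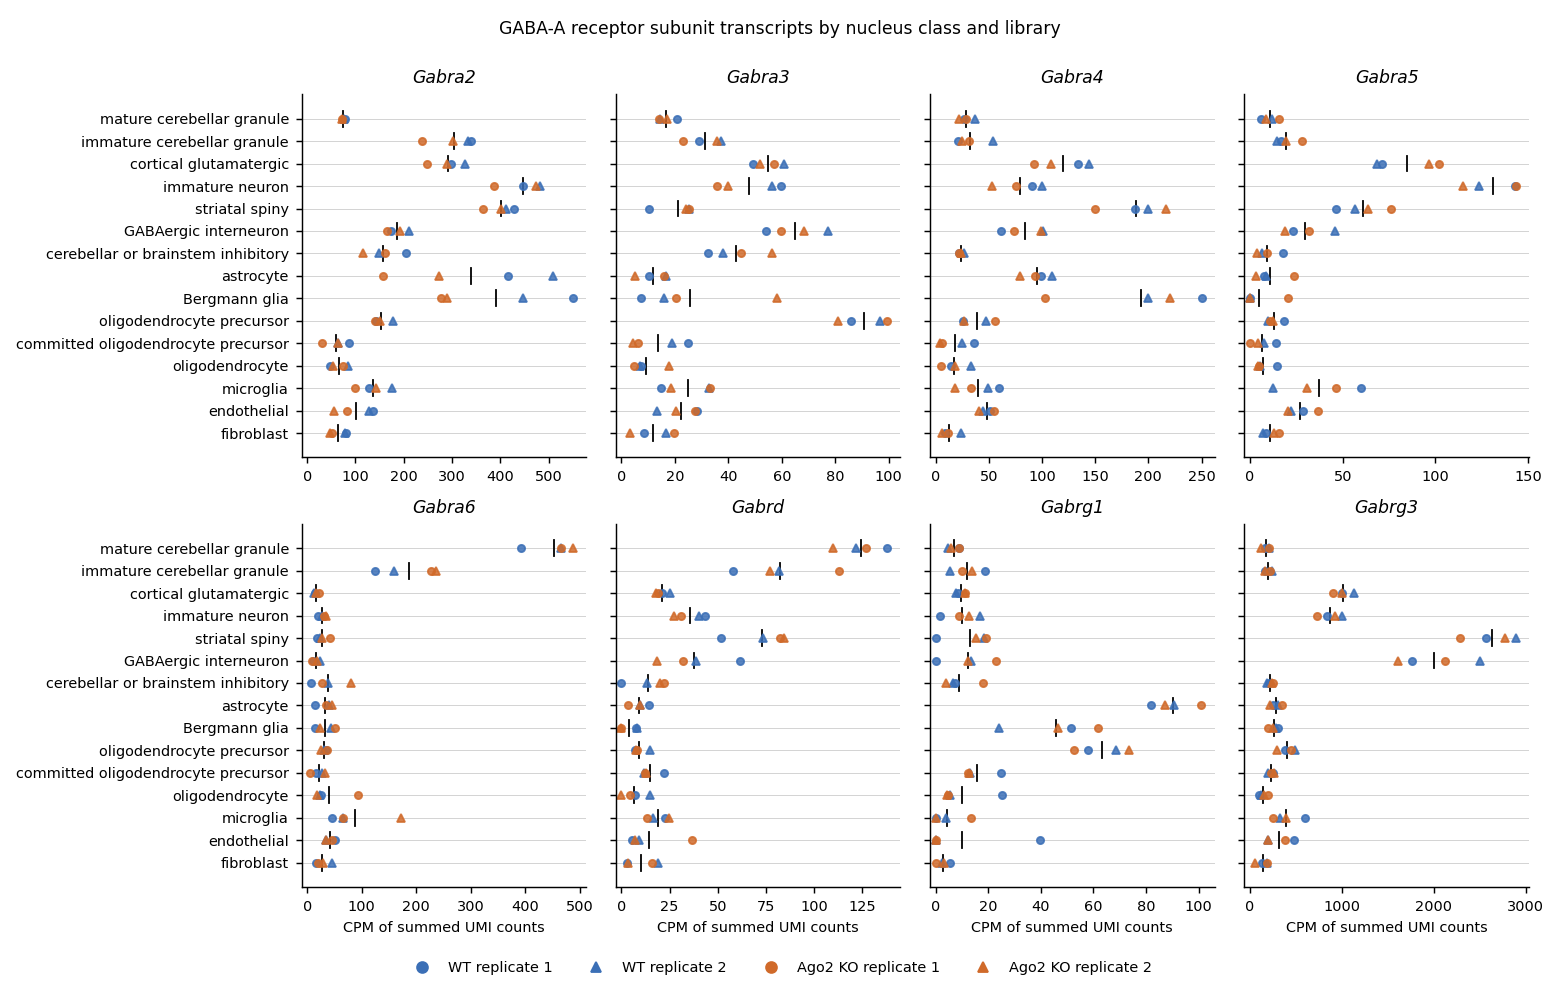
Levels of the 8 subunit genes in 15 nucleus classes, in CPM of summed UMI counts on the horizontal axis; each point is a library, coloured by genotype, and the bar marks the mean of the 4 libraries. Gabra6 stands out in mature granule nuclei (393 to 488 CPM). Gabra2 is above 200 CPM in all 4 libraries of immature neurons, striatal spiny neurons, Bergmann glia, immature granule and cortical glutamatergic nuclei.

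Among the alpha subunits, Gabra2 is known from the axon initial segment and synapses of forebrain neurons. By the mean of the 4 libraries it was highest in immature neurons, at 446 and 481 CPM in WT and 386 and 475 in Ago2 KO. Striatal spiny neurons followed at 402 ± 27.7 CPM (SD, n = 4), Bergmann glia at 391 ± 131 and astrocytes at 339 ± 155. Immature granule nuclei had 303 ± 45.9 CPM and cortical glutamatergic nuclei 291 ± 31.9. These leading classes overlapped in order, and the first gap without overlap lay between cortical glutamatergic nuclei and GABAergic interneurons (186 ± 20.5 CPM). The spread over libraries in astrocytes and Bergmann glia was the widest of the gene and followed genotype, as described below. Among the WT libraries alone, the highest single value was in Bergmann glia, followed by astrocytes. The lead of immature neurons therefore rests on the mean over both genotypes. Mature granule nuclei held only 74.3 ± 2.71 CPM, and committed oligodendrocyte precursors were lowest at 60.6 ± 22.6.

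Gabra3, an alpha subunit of early postnatal cortex and of brainstem neurons, had its highest mean among the named classes in a glial one. Oligodendrocyte precursors, the dividing cells that give rise to myelinating glia, had 85.9 and 96.9 CPM in WT and 99.5 and 81.1 in Ago2 KO. All 4 libraries were above every library of the next named class, GABAergic interneurons, at 54.0, 77.2, 59.6 and 68.3 CPM. An unnamed cluster of 1570 nuclei with Slc17a6 (cluster 1) was as high, at 93.0, 100.3, 104 and 85.1 CPM, and overlapped with the precursors. Its class is open: without a mitochondrial maximum, a cluster with many of the same leading genes was named GABAergic interneuron. Cortical glutamatergic nuclei had 54.8 ± 5.18 CPM and immature neurons 47.9 ± 11.8. The level was 13.6 ± 10.0 CPM in committed oligodendrocyte precursors and 9.12 ± 5.86 in oligodendrocytes, the lowest class. Along the oligodendrocyte lineage the 3 classes thus went from the highest mean of the named classes to the lowest.

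Gabra4, which pairs with the delta subunit in thalamus, striatum and dentate gyrus, had its highest mean in Bergmann glia, the radial astroglia of the cerebellum, at 250, 199, 103 and 221 CPM. Striatal spiny neurons, the projection neurons of the striatum, had 188, 200, 150 and 217 CPM. Those 2 classes overlapped, while spiny neurons lay above cortical glutamatergic nuclei (134, 144, 92.5 and 108 CPM) in every library. Astrocytes had 94.98 ± 12.6 CPM, mature granule nuclei 28.5 ± 6.40 and fibroblasts, the lowest class, 12.6 ± 7.83. The 103 subcortical glutamatergic nuclei, too few for a class of their own, had 254 ± 79.4 CPM.

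Gabra5 encodes an alpha subunit known mainly from receptors outside the synapse. In immature neurons it reached 143 and 124 CPM in WT and 143 and 115 in Ago2 KO, above all libraries of cortical glutamatergic nuclei (70.9, 68.3, 102 and 96.7 CPM). Striatal spiny neurons had 60.7 ± 12.5 CPM. Outside these 3 neuron classes the means ran from 5.14 CPM in Bergmann glia to 37.4 in microglia. Mature granule nuclei had 10.5 ± 4.16 CPM and astrocytes 10.9 ± 8.86.

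Gabra6 is the alpha subunit known for cerebellar granule neurons. Mature granule nuclei had 393 and 466 CPM in WT and 465 and 488 in Ago2 KO. Immature granule nuclei had 124, 160, 227 and 237 CPM, below every mature library. The other 13 classes had means between 15.9 and 87.5 CPM, and microglia, highest among them, ranged from 45.0 to 173 CPM. Transcripts of other granule genes were also found in classes outside the granule lineage: the summed level of the mature granule marker list was 249 to 399 CPM in astrocytes. The part of RNA released from granule nuclei in these low levels was not tested.

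Gabrd, the delta subunit, shared the granule classes with Gabra6. It stood at 138, 122, 127 and 110 CPM in mature granule nuclei and at 57.9, 81.8, 113 and 77.1 in immature ones, which overlapped by 1 library (Ago2 KO replicate 1). Striatal spiny neurons came next at 51.4, 73.5, 82.5 and 84.2 CPM. GABAergic interneurons had 37.8 ± 18.0 CPM, immature neurons 35.4 ± 7.69 and cortical glutamatergic nuclei 20.9 ± 3.05. The single gap without overlap was the one between immature neurons and cortical glutamatergic nuclei. Astrocytes, oligodendrocyte precursors and Bergmann glia had means of 9.25, 9.35 and 3.83 CPM.

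Of the gamma subunits, Gabrg1 had its 3 highest means among the named classes in glia. Astrocytes had 81.8 and 90.7 CPM in WT and 101 and 87.1 in Ago2 KO, and oligodendrocyte precursors had 58.1, 68.5, 52.5 and 73.7. These 2 classes did not overlap. Bergmann glia had 51.5, 23.9, 61.6 and 46.5 CPM, and all other named classes had means of 15.7 CPM or less, with fibroblasts at 2.79. Among the named neuron classes the highest mean was 13.2 ± 8.95 CPM, in striatal spiny neurons, but cluster 1 had 35.1 to 43.3 CPM, within the range of Bergmann glia. Gabrg3, in contrast, was highest in neurons. Striatal spiny neurons had 2573, 2893, 2284 and 2775 CPM, and GABAergic interneurons 1760, 2506, 2122 and 1615, which overlapped with them. Both lay above cortical glutamatergic nuclei (1009 ± 90.7 CPM) in every library. Immature neurons had 873 ± 116 CPM and lay above the next class, oligodendrocyte precursors, at 401 ± 86.7. Cerebellar neurons were near the glia: mature granule nuclei had 177 ± 42.3 CPM and immature ones 193 ± 37.8.

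Across the means of the 15 classes, which share the same 4 libraries, Gabra2 and Gabra4 were the members most alike (Pearson r = 0.84 on log2(CPM + 1)). Gabra5 and Gabrg3 gave r = 0.75, Gabra4 and Gabrg3 gave 0.71 and Gabra6 and Gabrd gave 0.52, while Gabra6 and Gabrg3 ran opposite at -0.46. The neighbours Gabrg1 and Gabra2 on chromosome 5 gave 0.44. Among 13795 genes with at least 10 CPM in some class, the genes most like Gabra6 were Fat2, an atypical cadherin, Cbln1, the granule-cell synaptic organizer, and Gm2694 (r = 0.96 each). Fat2 and Cbln1 were among the markers that named the mature granule class, so their high level there is no finding. Gabra5 was most like Bcl11a, a zinc-finger factor (0.96), and Gabrg3 most like Bcl11b, its relative (0.95). Gabra4 was most like Gria1, an AMPA receptor subunit (0.91), Gabrd most like Rbfox3, the neuronal splicing factor NeuN (0.93), and Gabra2 most like Dclk1, a microtubule-associated kinase (0.88). Gabra3 was most like Olfm2 (0.88) and Gabrg1 most like Gm26618 (0.91). These are descriptions over 15 points and carry no test.

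Cerebellar granule nuclei were compared with glutamatergic nuclei (cortical and subcortical together, 2043 nuclei) by edgeR's quasi-likelihood test with the library as a block and Benjamini-Hochberg adjustment. All 8 members passed the threshold of 0.05, 2 higher and 6 lower in granule nuclei, in a contrast in which 56.3% of the 11023 genes tested passed (26.9% higher and 29.4% lower). The median log2 difference was -1.998 over the members and 0.01 over all genes. Gabra6 was 27.1-fold higher in granule nuclei (log2 difference 4.76, SE 0.12, adjusted p = 8.04e-19), from 12.9 to 21.8 CPM in the glutamatergic libraries. Gabrd was 4.83-fold higher (2.27, SE 0.12, adjusted p = 5.3e-14). The lower members were Gabra5 (-2.94, SE 0.16), Gabrg3 (-2.61, SE 0.12), Gabra4 (-2.27, SE 0.12), Gabra2 (-2.10, SE 0.10) and Gabra3 (-1.90, SE 0.16). Granule nuclei thus held 2 of the 8 subunits at a higher level and 5 others at less than the glutamatergic level in every library. The eighth, Gabrg1, differed by -0.71 (SE 0.26, adjusted p = 0.0266), a call that ended without WT replicate 2 or without Ago2 KO replicate 2 (adjusted p up to 0.17), with library totals in place of TMM scaling (0.0631) and with DESeq2 (0.246).

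Within the granule lineage, a contrast chosen after seeing the data compared mature with immature granule nuclei. Of the 7 members tested, 4 passed, while 21% of all genes did, and the median difference was -0.24 over the members against 0.01 over all genes. Gabra6 was higher in mature nuclei (log2 difference 1.36, SE 0.10, adjusted p = 2.38e-16), and so was Gabrd (0.62, SE 0.13, adjusted p = 0.000186). Gabra2 was lower by 1.996 log2 units in mature nuclei (SE 0.10, adjusted p = 4.77e-22), from 239 to 339 CPM in immature nuclei to 71.7 to 77.6 in mature ones. Gabra3 was also lower (-0.97, SE 0.23, adjusted p = 0.00101), though not past the threshold without WT replicate 2 (adjusted p = 0.149) or with DESeq2 (adjusted p = 0.139). Gabra5 (-0.71, adjusted p = 0.0772), Gabra4 (-0.24) and Gabrg3 (-0.08) did not pass. With putative doublets kept, Gabrg3 was lower in mature nuclei (-0.41, adjusted p = 0.000963). The mature and immature classes therefore differed in the alpha subunits in both directions.

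**Figure D2:**
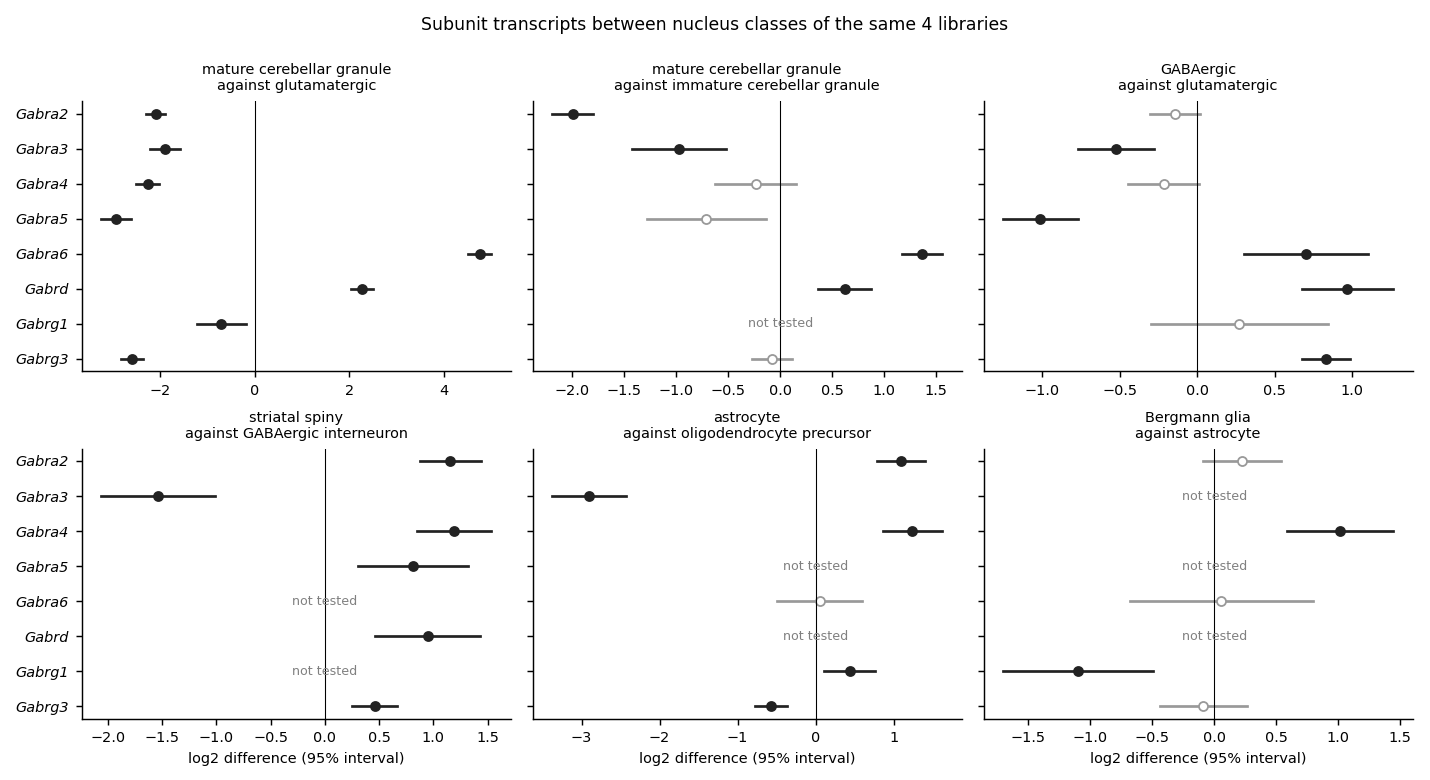
Log2 differences of the subunit genes between pairs of nucleus classes, with 95% intervals from the edgeR fit; filled points passed the adjusted threshold of 0.05, and genes below the count filter are written as not tested. The axes differ between panels. Gabra6 and Gabrd are the 2 genes to the right of 0 in granule against glutamatergic nuclei, and Gabra3 is the gene farthest to the left in astrocytes against oligodendrocyte precursors.

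GABAergic nuclei (1266 in all: 567 striatal spiny, 385 cerebellar or brainstem inhibitory, 299 GABAergic interneuron and 15 Purkinje nuclei) were compared with the same glutamatergic nuclei. Of the 8 members, 5 passed, 3 higher and 2 lower, in a contrast in which 28.5% of 11027 genes passed (13.4% higher and 15.1% lower). The median difference was 0.06 over the members and 0.01 over all genes. Gabrd had 38.1, 48.1, 53.7 and 57.5 CPM in GABAergic and 23.2, 26.8, 20.1 and 20.6 in glutamatergic nuclei, without overlap (log2 difference 0.97, SE 0.15, adjusted p = 3.86e-05). Gabrg3 had 1606 to 2223 CPM against 900.5 to 1109 (0.83, SE 0.08, adjusted p = 6.72e-08). Gabra5 was lower in GABAergic nuclei, at 30.7 to 47.4 CPM against 65.8 to 101 (-1.01, SE 0.12, adjusted p = 1.74e-06). These 3 genes did not overlap between these 2 sets of nuclei. The GABAergic class did not take in the 978 immature neurons, which also had Gad1, a GABA-synthesis gene, at 313 to 408 CPM (182 to 217 in the GABAergic class). In those immature neurons Gabra5 (115 to 143 CPM) was above every glutamatergic library, Gabrg3 (733 to 1000 CPM) overlapped with the glutamatergic libraries and Gabrd (27.2 to 43.4 CPM) was above them. Gabra3 was lower (-0.53, SE 0.13, adjusted p = 0.00288) and Gabra6 higher (0.70, SE 0.20, adjusted p = 0.0126), the latter at 13.8 to 39.3 CPM against 12.9 to 21.8.

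Those last calls depended on the nuclei and tools used. With DESeq2 the adjusted p was 0.0647 for Gabra3 and 0.213 for Gabra6, Gabra3 also missed the threshold at Leiden resolution 2 (0.0701), and Gabra6 also missed the threshold without WT replicate 2 (0.137) or without Ago2 KO replicate 2 (0.0917). Without a mitochondrial maximum the clusters were drawn anew and the GABAergic class grew to 496, 999, 687 and 683 nuclei (from 234, 493, 283 and 256). Its interneuron part was then a single cluster of 1882 nuclei. That cluster was led by Glra1, Baiap3, Ebf2 and other genes that also led cluster 1, the unnamed cluster of 1570 nuclei. The part of this change of membership in the values below was not tested. In that larger class the difference was -0.47 for Gabrd (adjusted p = 0.00495) and 0.31 for Gabra3 (adjusted p = 0.00393), both past the threshold and opposite in sign to the values above, while Gabra5 and Gabrg3 kept their signs. Gabra2 (-0.14, 95% interval -0.31 to 0.02), Gabra4 (-0.22, -0.45 to 0.01) and Gabrg1 (0.27, -0.30 to 0.84) did not pass. Gabra4 passed without Ago2 KO replicate 2 (adjusted p = 0.0131), and Gabra4 (-1.06) and Gabrg1 (1.38) passed in the larger class.

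The GABAergic class joins unlike neurons, and a contrast chosen after seeing the data compared 2 of them. Striatal spiny neurons differed from GABAergic interneurons in all 6 members tested, while 35.6% of all genes passed, with a median of 0.88 over the members against 0.0047 over all genes. Higher in spiny neurons were Gabra4 (log2 difference 1.19, SE 0.18), Gabra2 (1.15, SE 0.14), Gabrd (0.95, SE 0.25), Gabra5 (0.81, SE 0.26) and Gabrg3 (0.46, SE 0.11). Gabra3 was lower (-1.54, SE 0.27, adjusted p = 2.55e-06), at 10.3 to 25.4 CPM in spiny neurons against 54.0 to 77.2 in interneurons. The call for Gabrd ended without WT replicate 2 (adjusted p = 0.0663), and DESeq2 gave adjusted p-values of 0.0747 for Gabrd and 0.0972 for Gabra5. Without a mitochondrial maximum, where the interneuron class was larger, the adjusted p of Gabra5 was 0.208.

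The cortical glutamatergic class also held differing clusters. Cluster 6 had Cux2, a marker of upper cortical layers, and cluster 14 had Tbr1, Hs3st4 and Tle4, markers of deep layers. In a contrast chosen after seeing the data, 4 of 5 members tested passed, against 27.3% of all genes, with a median of 0.13 over the members. Gabra2 had 75.7 to 103 CPM in cluster 14 and 246 to 357 in cluster 6 (log2 difference -1.85, SE 0.13, adjusted p = 3.49e-14). Gabra4 was lower in cluster 14 as well (-0.82, SE 0.15), while Gabra5 (1.12, SE 0.17) and Gabrg3 (0.47, SE 0.09) were higher. Gabra3 (0.13) did not pass.

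Astrocytes and oligodendrocyte precursors, the glia with the highest Gabrg1, were compared next. Of 6 members tested, 5 passed, 3 higher and 2 lower in astrocytes, against 42.6% of all genes (21.7% higher and 21% lower), and the median difference was 0.24 over the members and 0.01 over all genes. Gabra4 (log2 difference 1.24, SE 0.19, adjusted p = 5.87e-06) and Gabra2 (1.09, SE 0.16, adjusted p = 1.55e-06) were higher in astrocytes. Gabra3 was lower by 2.90 log2 units (SE 0.24, adjusted p = 1e-10), at 4.93 to 16.7 CPM in astrocytes. Gabrg3 was lower too (-0.58, SE 0.10, adjusted p = 4.19e-05). Gabrg1 was higher by 0.43 (SE 0.17, adjusted p = 0.0376), but this call ended with DESeq2 (0.33), with no filter on low counts (0.057), with putative doublets kept (0.0826) and without any 1 of 3 libraries, Ago2 KO replicate 2 being the exception. Gabra6 differed by 0.05 (95% interval -0.50 to 0.59), and Gabra5 and Gabrd were below the count filter.

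Bergmann glia differed from astrocytes in 2 of 5 members tested, in a contrast chosen after seeing the data in which 13% of genes passed. Gabra4 was higher in Bergmann glia (log2 difference 1.02, SE 0.22, adjusted p = 0.0014). Gabrg1 was lower (-1.10, SE 0.31, adjusted p = 0.0153), a call that ended without WT replicate 2 (adjusted p = 0.271) and with DESeq2 (0.139). The difference in Gabra2 was 0.22 (95% interval -0.09 to 0.54) and did not pass.

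Other genes of GABA signalling were taken from a list of 26: synthesis and transport, receptor anchoring and trafficking, chloride transport, metabotropic GABA receptors and rare subunits. Between GABAergic and glutamatergic nuclei 7 of 24 tested were higher and 6 lower, where 13.4% of all genes were higher and 15.1% lower, with a median of 0.16 against 0.01 for all genes. Gad1, Gad2 and Slc32a1 were among the markers that named the GABAergic classes and are no finding. The count of higher genes and the median include them, and so lie higher than the rest of the list alone would give. The other higher genes were Abat, the GABA transaminase that breaks GABA down (log2 difference 2.41), Hap1 (0.58), Clptm1 (0.35) and Gphn, the gephyrin scaffold that anchors receptors (0.28). Lower were Slc6a11 (-0.79), a GABA transporter, Gabbr2 (-0.73), a GABA-B receptor subunit, Trak2, Plcl1, Slc12a2 and Nsf. Between granule and glutamatergic nuclei 6 of 24 were higher and 11 lower, where 26.9% of all genes were higher and 29.4% lower, led by Iqsec3 (-2.59), a gephyrin partner, and Shisa7 (-2.36), a receptor auxiliary protein. In astrocytes against oligodendrocyte precursors 6 of 19 were higher and 7 lower, where 21.7% of all genes were higher and 21% lower. Slc6a11 led, at 898 CPM in astrocytes and 22.2 in precursors (5.35), followed by Gabbr2 (1.59). Slc12a5, the neuronal chloride exporter, was among the 2 higher of 20 genes in mature against immature granule nuclei (0.64), where Plcl1 (-1.16) and Abat (-0.73) were lower. Of all genes in that contrast 10% were higher and 11% lower, so these counts were near the background.

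The comparison of genotypes starts with Ago2 itself. Its level in glutamatergic nuclei was 69.6 and 78.4 CPM in WT and 101 and 98.5 in the libraries labelled Ago2 KO (log2 change 0.37, adjusted p = 0.902), so it was not lower there. The deleted exons are not named, and 3′ counts outside them do not check the deletion. Slc17a6, the driver gene, had 112 to 196 CPM in subcortical glutamatergic nuclei, 61.0 to 95.7 in cluster 1 and 55.0 to 78.6 in immature granule nuclei, and reached 10.5 to 19.7 CPM in cortical glutamatergic nuclei and 1.30 to 12.6 in astrocytes. Of the 2043 glutamatergic nuclei, 1940 were cortical. Ago2 was not examined separately in the classes with the most Slc17a6, so the values above do not show its level in them. The labels do not tie libraries to animals, and the p-values measure only how far libraries of a genotype spread, which may be technical. With 2 libraries against 2, an exact permutation test cannot go below p = 0.333.

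Of the 120 pairs of member and class, 70 passed the count filter, and 0 of the 70 passed the adjusted threshold in edgeR's quasi-likelihood test, where 0.0533% of all gene and class pairs did. At an unadjusted p under 0.05 there were 9 pairs (12.9%), against 5.83% of all pairs, and DESeq2 called 1. The genotypes did not overlap in 28 pairs, 13 higher and 15 lower in Ago2 KO, or 40% against a background of 34.7% (18.8% higher and 16% lower). The 50 pairs below the filter were not tested.

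**Figure D3:**
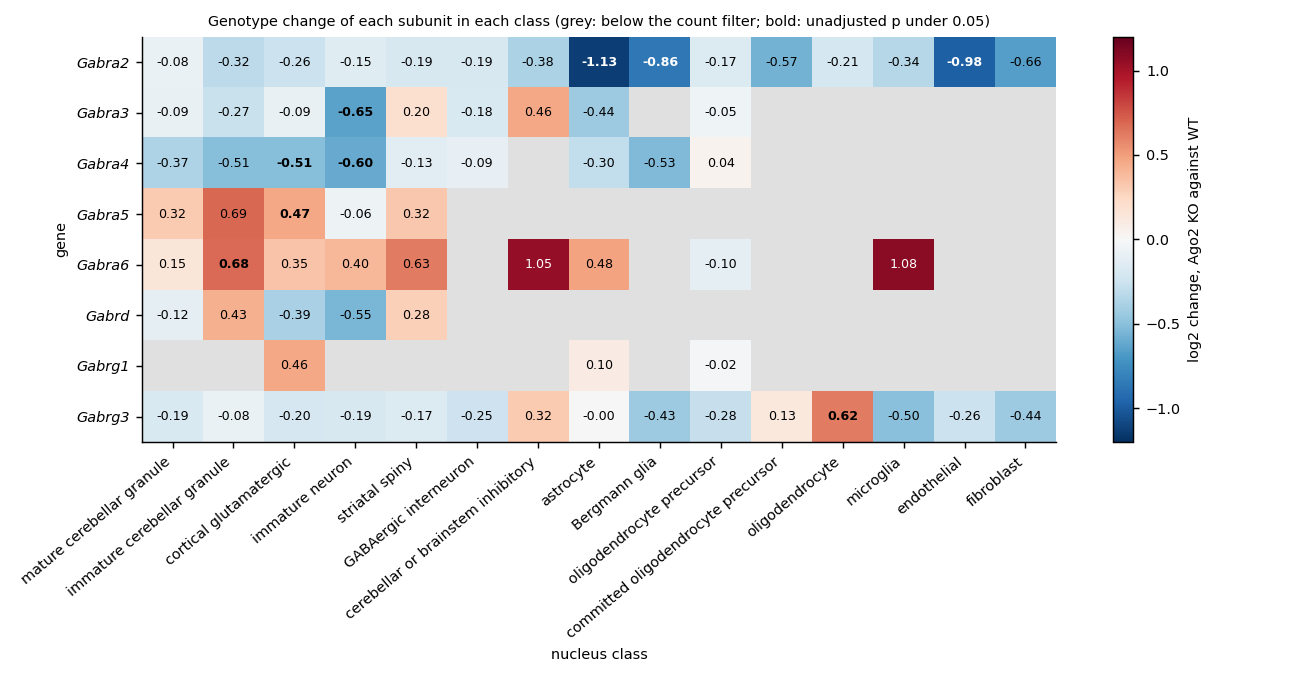
Log2 change of each subunit gene (rows) in each nucleus class (columns), Ago2 KO against WT; colour gives the change, grey cells were below the count filter and bold values have an unadjusted p under 0.05. The Gabra2 row is below 0 in the 15 named classes drawn, from -1.13 in astrocytes to -0.08 in mature granule nuclei.

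Gabra2 carried the largest difference between genotypes. In astrocytes it had 415 and 508 CPM in WT and 158 and 273 in Ago2 KO, from 897 and 266 UMIs. Both Ago2 KO libraries lay below both WT libraries, as did 18% of the genes tested in astrocytes, and the 2 Ago2 KO libraries were themselves far apart. The log2 change was -1.13 (SE 0.21, 95% interval -1.55 to -0.71), with an unadjusted p of 0.000135 and an adjusted p = 0.0659, above the threshold of 0.05 that 0.168% of genes met. It passed with DESeq2 (0.0174), with no filter on low counts (3.44e-07), with the replicate number as a block (0.0152) and with the numbers crossed (7.7e-09). It did not pass with DESeq2 size factors (0.103) or with library totals in place of TMM scaling (0.0775). The threshold was also missed with putative doublets kept (0.111), without a mitochondrial maximum (0.149) and at Leiden resolution 2 (0.0930). With a library left out, the change ran from -1.55 without Ago2 KO replicate 2 to -0.77 without Ago2 KO replicate 1.

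The astrocyte class joined 2 clusters, and the pattern was the same in both. Cluster 4 had 410 and 537 CPM in WT and 153 and 267 in Ago2 KO (log2 change -1.21, adjusted p = 0.0464, with 0.265% of genes called). Cluster 10 had 422 and 466 CPM in WT and 162 and 279 in Ago2 KO (-1.04, adjusted p = 0.117, with 0.195% called). Cluster 4 made up 62.2% and 61.6% of astrocytes in WT and 53.6% and 54.6% in Ago2 KO. Bergmann glia, a separate class, had 551 and 447 CPM in WT and 277 and 290 in Ago2 KO (-0.86, SE 0.29, adjusted p = 0.468, with 0.282% of genes called and 14.3% apart in this direction). No WT library overlapped an Ago2 KO library in any of these 3 groups of astroglial nuclei. In clusters 4 and 10, 16% and 18.4% of the genes tested were apart with Ago2 KO lower. The 3 groups come from the same 4 libraries, so they are not independent of one another.

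Levels of other transcripts also differed between libraries in the same nuclei. The summed level of 11 oligodendrocyte markers in astrocytes was 4691 and 1593 CPM in WT and 460 and 1317 in Ago2 KO, with WT replicate 1 far above the rest. All 11 had UMIs there, 5 were lower in both Ago2 KO libraries and 0 were higher. Of all genes tested in astrocytes, 18% were apart with Ago2 KO lower and 19.6% with Ago2 KO higher. Gabra2 in oligodendrocytes themselves was 65.0 CPM, below its level in astrocytes of every library. The 12 cortical glutamatergic markers summed to 593 and 635 CPM in WT and 573 and 608 in Ago2 KO, the 12 interneuron markers to 1254 and 1342 against 1116 and 1220, and the 11 astrocyte markers to 13471 and 13654 against 12557 and 12986. The median depth was 2212 and 2483 UMIs against 2154 and 1746, and the median mitochondrial share was 1.28% in WT replicate 1 and 0.20% to 0.27% in the other libraries. In Bergmann glia the oligodendrocyte markers summed to 5603 and 1989 CPM in WT and 678 and 1185 in Ago2 KO, with a depth of 2525 and 2526 UMIs against 1662 and 1384. The part of these differences in the values of Gabra2 was not tested.

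Across the 15 named classes the change of Gabra2 was below 0, with a median of -0.32. In cluster 1, which has the driver gene and no class name, it was 0.06 (95% interval -0.18 to 0.30, adjusted p = 0.999), at 300 and 316 CPM in WT and 302 and 343 in Ago2 KO. Of the 1775 genes tested in every class, 0.958% were below 0 in every one. The genotypes did not overlap in 8 of the 15: besides astrocytes and Bergmann glia these were cortical glutamatergic, endothelial, fibroblast, immature granule, mature granule and striatal spiny nuclei. Over all genes and named classes 16% of pairs were apart with Ago2 KO lower. The size varied widely. In glutamatergic nuclei Gabra2 had 294 and 323 CPM in WT and 258 and 289 in Ago2 KO (log2 change -0.22, 95% interval -0.51 to 0.07), and in GABAergic nuclei the change was -0.06 (-0.37 to 0.25). In striatal spiny neurons it had 429 and 412 CPM in WT and 364 and 402 in Ago2 KO (-0.19), and in immature granule nuclei 339 and 333 against 239 and 303 (-0.32). In both classes the gap between the nearest libraries of the genotypes was smaller than that between the 2 Ago2 KO libraries. Fibroblasts had 81.2 and 78.8 CPM in WT and 51.2 and 47.8 in Ago2 KO, and endothelial nuclei had 136 and 129 against 82.9 and 54.7 (-0.98, adjusted p = 0.998), from 53 and 17 UMIs. Oligodendrocyte precursors had 142 and 178 CPM in WT and 141 and 150 in Ago2 KO, which overlapped (-0.17). The classes of a library share its preparation, so the 15 values are not independent. Against glutamatergic nuclei the change in astrocytes was larger by 0.90 log2 units (interaction -0.90, SE 0.21, adjusted p = 0.0647, in a test chosen after seeing the data that called 0.0753% of genes); of its alternatives, no filter on low counts and leaving out Ago2 KO replicate 2 brought it inside the threshold (0.0418 and 0.000394).

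**Figure D4:**
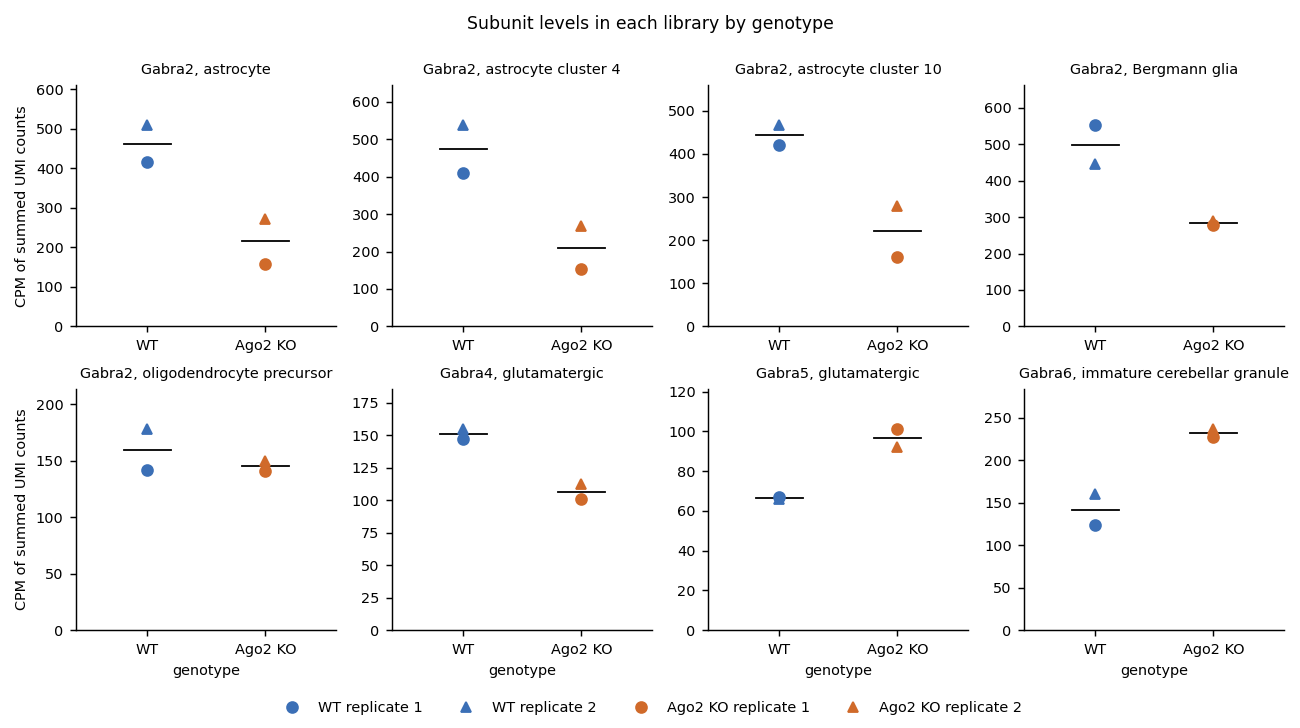
CPM of summed UMI counts (vertical axes, from 0) in each library by genotype, for Gabra2 in astroglia and oligodendrocyte precursors, Gabra4 and Gabra5 in glutamatergic nuclei and Gabra6 in immature granule nuclei; each point is a library (circles replicate 1, triangles replicate 2) and the bar is the mean of the 2 libraries of a group. In astrocytes and in both of their clusters, Gabra2 in the Ago2 KO libraries (153 to 279 CPM) lies below the WT libraries (410 to 537).

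In glutamatergic nuclei 0 of 8 members passed in edgeR's test, where 0.0176% of genes did, and 2 had an unadjusted p under 0.05, against 5.5% of genes, with a median change of -0.17 over the members against -0.0063 over all genes. Gabra4 had 147 and 155 CPM in WT and 101 and 112 in Ago2 KO, without overlap (log2 change -0.55, SE 0.15, adjusted p = 0.532). Gabra5 had 67.0 and 65.8 CPM in WT and 101 and 92.1 in Ago2 KO, again without overlap and in the opposite direction (0.49, SE 0.16, adjusted p = 0.75). The 2 alpha subunits were thus apart in opposite directions without passing the adjusted test, and 20.4% of all genes in these nuclei were apart with Ago2 KO higher and 13.6% with Ago2 KO lower. The mix of cortical clusters also differed, cluster 3 holding 45.9% and 44.0% of cortical glutamatergic nuclei in WT and 50.4% and 50% in Ago2 KO. Cluster 3 had a Gabra5 mean of 99.5 CPM and a Gabra4 mean of 99.9, and cluster 6, whose share was 35.1% and 36.7% in WT and 31.4% and 29.2% in Ago2 KO, had 49.3 and 165. Oligodendrocyte markers in glutamatergic nuclei summed to 383 and 349 CPM in WT and 210 and 192 in Ago2 KO, 6 of 11 being lower in both and 0 higher. The part of the cluster mix and of these markers in the values was not tested.

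Within cluster 14 alone Gabra4 had 144 and 109 CPM in WT and 52.7 and 75.8 in Ago2 KO (log2 change -0.97, adjusted p = 0.871). Its change was smaller in the other cortical clusters, at -0.31 in cluster 3 and -0.42 in cluster 6. Within cluster 6 the change of Gabra5 was 0.80 (adjusted p = 0.707), and it was smaller in cluster 3 (0.32) and cluster 14 (0.25). Gabrg3 (-0.21), Gabrd (-0.37), Gabra3 (-0.13), Gabrg1 (0.45) and Gabra6 (0.33) in glutamatergic nuclei had 95% intervals that included 0.

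Cerebellar granule nuclei gave the values of Gabra6 and Gabrd with the most counts. In immature granule nuclei Gabra6 had 124 and 160 CPM in WT and 227 and 237 in Ago2 KO, without overlap (log2 change 0.68, SE 0.20, adjusted p = 0.345, with 0.0145% of genes called and 17% apart in this direction). In mature granule nuclei it had 393 and 466 against 465 and 488 CPM, which overlapped (0.15, 95% interval -0.11 to 0.40). Over 9 classes tested, its change was above 0 in 8, and the groups did not overlap, with Ago2 KO higher, in 5, where 18.8% of all pairs of gene and class were apart in that direction. In the immature nuclei the mature granule markers summed to 1827 and 1902 CPM in WT and 2352 and 1836 in Ago2 KO. There 9 of 11 oligodendrocyte markers were lower in both Ago2 KO libraries, where 17.2% of all genes tested were apart in that direction. Their part in the value of Gabra6 was not tested. In GABAergic nuclei the change of Gabra6 was 0.69 (SE 0.34, adjusted p = 0.994). Gabrd differed by 0.43 (95% interval -0.09 to 0.95) in immature and -0.12 (-0.43 to 0.20) in mature granule nuclei.

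Immature neurons gave a pair of values with an unadjusted p under 0.05. Gabra4 had 90.3 and 99.9 CPM in WT and 75.4 and 52.7 in Ago2 KO (log2 change -0.60, adjusted p = 0.999), and Gabra3 had 59.6 and 56.3 against 35.8 and 40.0 (-0.65, adjusted p = 0.999). Neither overlapped between genotypes, where 14.3% of genes in these nuclei were apart with Ago2 KO lower and 4.1% had an unadjusted p under 0.05. Gabrd there had 43.4 and 40.3 CPM against 30.7 and 27.2 (-0.55, 95% interval -1.17 to 0.06), while Gabra5, highest in this class, differed by -0.06 (-0.47 to 0.35). Oligodendrocytes had 93.7 and 115 CPM of Gabrg3 in WT and 192 and 151 in Ago2 KO, a change of 0.62 (adjusted p = 0.692), which was -0.62 when putative doublets were kept and the class was drawn anew. Gabrg1 in astrocytes, its leading class, differed by 0.10 between genotypes (95% interval -0.32 to 0.51). Gabrg3 in striatal spiny neurons differed by -0.17 (-0.47 to 0.14), and Gabra3 in oligodendrocyte precursors by -0.05 (-0.54 to 0.44). In its leading class each of these 3 genes thus had an interval that included 0.

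Whether the genotype acted differently in GABAergic and glutamatergic nuclei was tested by the interaction term of a model that held the library as a block. Of the 8 members, 0 passed, with edgeR and with DESeq2, where 0.091% of 12086 genes did in edgeR, and 2 had an unadjusted p under 0.05, against 6.69% of genes. The median difference of changes was 0.16 over the members and -0.02 over all genes. The smallest p was for Gabra4 (0.59, SE 0.19, adjusted p = 0.439), followed by Gabrd (0.66, SE 0.28, adjusted p = 0.681). The 26 other genes of GABA signalling gave 234 tested pairs of gene and class, of which edgeR called 0, against 0.0533% of all pairs. An unadjusted p under 0.05 was found in 9 (3.85%), against 5.83% of all pairs. The interaction called 0 of these genes as well. In astrocytes the smallest p-values among them were for Gabbr2 (0.53, adjusted p = 0.341) and Gad2 (-1.03, adjusted p = 0.444). In glutamatergic nuclei 7 of 23 tested were above 0 and 16 below, with a median of -0.07 against -0.0063 over all genes, and Nlgn2 had the smallest p (0.32, adjusted p = 0.972).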

How the data were processed

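Per the labels, nuclear RNA of 4 libraries was measured with 10x Genomics 3′ chemistry. The deposited values are whole-number UMI counts per gene and barcode, written by Cell Ranger 4.0.0 per the file headers. The submitters' processing notes also name Seurat 3.2.3 and GRCm38. The annotation and the intron and strand settings are not given in the sources used here.

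Barcodes with at least 500 UMIs and at most 5% mitochondrial UMIs were kept. Scrublet's automatic threshold marked 1 to 6 barcodes per library, so the highest scores were removed at 0.8% per 1000 barcodes (91 to 333). Nuclei were scaled to 10000 UMIs and clustered with scanpy 1.11.5 (2000 variable genes without the members, Ago2, sex-linked and mitochondrial genes, 30 components, 15 neighbours, Leiden resolution 1 in igraph 0.11.9), giving 34 clusters. A class name needed 3 markers seen in 10% of nuclei and 2-fold over other clusters, and a score (mean log2 fold) of 0.5. Clusters with a depth under 0.333 of their library, or with a second class scoring at least 0.9 of the first, were treated by rules set after seeing the data.

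Counts were summed per library and class with at least 20 nuclei in each library, and tested with edgeR 4.0.16 in R 4.3.3 (filterByExpr, TMM, two-sided quasi-likelihood test, Benjamini-Hochberg over all genes tested, threshold 0.05). Intervals of 95% take the estimate and its SE with a normal multiplier, so they are narrower than edgeR's own test allows, and calls rest on the adjusted p alone. DESeq2 1.42.0, other scalings, filters, clusterings and left-out libraries were alternatives. On simulated counts, log2 changes of 1 were recovered for 47.4% of changed genes in glutamatergic nuclei and 33.3% in astrocytes, and changes of 2 for 91.8% and 93.5%. All 8 members were named in every comparison. The genes most like a member are the 3 with the highest correlation over classes, and list genes are those with the 2 smallest p-values or counted calls. The members and lists were chosen with earlier results of these data known.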

Additional observations from a re-analysis of the deposited data

How the results depend on the processing

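The count of member and class pairs called between genotypes, 0 in the reported fit, was 1 with no filter on low counts, 1 with DESeq2, 1 with a replicate block, 1 with a crossed replicate block, and 1 to 1 when each library was left out; a group left with 1 library is assumed to vary like the other. In each case this was Gabra2 in astrocytes, whose adjusted p was 0.0152 with the replicate block and 7.7e-09 with the crossed one. Libraries share only a number: the correlation of same-numbered libraries ran from -0.11 (fibroblasts) to 0.10 over classes. The block changed no other genotype call named in the text. Between GABAergic and glutamatergic nuclei DESeq2 called 3 members in place of 5, and left-out libraries gave 4 to 5. For Bergmann glia against astrocytes DESeq2 called 1 in place of 2, and left-out libraries gave 1 to 2. The interaction of astrocytes with glutamatergic nuclei called 1 with no filter on low counts and 0 to 1 with left-out libraries. Granule against glutamatergic nuclei gave 7 to 8 with left-out libraries, and the GABAergic interaction 0 under each alternative run.

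Signs turned for the following. Without a mitochondrial maximum, GABAergic against glutamatergic nuclei gave 0.31 for Gabra3 and -0.47 for Gabrd. The interneuron class there was a cluster with many of the leading genes of cluster 1. Under the same setting, Bergmann glia against astrocytes gave -0.14 for Gabra6. Gabra6 in that last contrast was also -0.14 with no filter on low counts, -0.017 with DESeq2, -0.0060 at Leiden resolution 2, and -0.10 to 0.26 with left-out libraries, and Gabrg3 there ran from -0.24 to 0.088. Gabra6 in astrocytes against precursors was -0.023 with DESeq2, -0.25 with putative doublets kept, and -0.17 to 0.34 with left-out libraries. Left-out libraries gave -0.061 to 0.54 for Gabrg1 in GABAergic against glutamatergic nuclei (below 0 without WT replicate 2) and -0.34 to 0.045 for Gabra4 in mature against immature granule nuclei. With doublets kept, Gabrg3 in oligodendrocytes was -0.62. The cause was not tested. Of 120 class levels, 14 moved by more than 1 SD without a mitochondrial maximum, 13 with doublets kept, 6 as a mean of nuclei, 4 at resolution 2 and 0 with left-out libraries. Depth limits the 50 pairs below the count filter.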

Other observations

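The largest unnamed cluster held 1570 nuclei, led by Glra1, a glycine receptor subunit, Baiap3 and Ebf2. Its nuclei had Slc17a6 at 61.0 to 95.7 CPM. Without a mitochondrial maximum, a cluster of 1882 nuclei with many of the same leading genes was named GABAergic interneuron. The markers detected in that larger cluster were Gad2, Slc32a1, Sst, Adarb2 and Nxph1. The mix of neuron types in cluster 1 was not tested. Gabra3 stood at 93.0, 100.3, 104 and 85.1 CPM there, Gabrg1 at 38.1, 37.2, 35.1 and 43.3, and Gabra2 at 300, 316, 302 and 343. Gabrg3 had 1105 ± 111 CPM (SD, n = 4) and Gabra5 63.5 ± 7.71, while Gabrd was at 4.65 ± 0.87 and Gabra6 at 12.6 ± 3.83. Gabrg1 was higher in every library of this cluster than in every library of striatal spiny neurons, the named neuron class with the highest mean.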
